A study of Mus musculus with 10 samples.

Results

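Open chromatin after 12 h of GATA1 activation was compared with that of untreated cells (0 h) in G1E-ER4, a mouse erythroid progenitor line. The comparison rests on 4 of the 10 libraries of an ATAC-seq time course, 2 at 0 h and 2 at 12 h, each deposited as its own list of peak summits. Every summit on chromosomes 1 to 19 and X was extended by 250 bp on each side, and windows that overlapped were merged over the 4 lists into 21359 regions. A region was called gained when both 12 h lists and neither 0 h list held a summit in it, and lost in the reverse case. This gave 725 gained regions (3.39% of all regions) and 556 lost regions (2.6%).

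All libraries, the 0 h ones included, came from cells that lack functional Gata1 and carry GATA1 fused to an estrogen receptor domain, kept in IMDM with fetal bovine serum, SCF and erythropoietin. The 12 h cells had spent that time in β-estradiol at 1e-07 M, which activates the fusion protein, and the 0 h cells had received none. About 50000 cells were tagmented for each library, and the other 6 libraries were taken at 2, 6 and 24 h. G1E-ER4 is a single subclone, no estradiol-treated cells without the fusion were analysed here, and no untreated culture was kept to 12 h, so the effects of GATA1, of the hormone and of time in culture cannot be told apart. The labels do not say whether replicates came from separate cultures.

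GATA1 is the zinc finger factor that drives erythroid maturation. It binds GATA motifs, often beside TAL1, and takes over sites that GATA2 holds in progenitors. In ATAC-seq the Tn5 transposase cuts accessible DNA, so a peak marks an open promoter, enhancer or insulator. G1E cells stop at the proerythroblast stage without GATA1 and mature when it is restored.

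The sequences below are the 200 bases around the summit of 2 gained and 3 lost regions among the highest-ranked distal ones, where distal means more than 1 kb from a protein-coding transcript start. They are plus-strand RefSeq sequence of GRCm38.p6 (mm10), and each is named by the nearest protein-coding gene. Capitals mark each GATA match, AGATAA or TGATAA on either strand. They are shown because, of the 10 motifs searched, GATA was the one whose share differed most in percentage points between lost and gained regions. Of the gained windows, that near Rrp12 held no match and that near Noct held 1.
Rrp12 gained, chr19:41888295-41888494: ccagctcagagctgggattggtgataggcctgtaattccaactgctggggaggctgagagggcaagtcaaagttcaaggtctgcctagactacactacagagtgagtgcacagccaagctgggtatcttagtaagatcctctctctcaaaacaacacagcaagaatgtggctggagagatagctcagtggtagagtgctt
Noct gained, chr3:51230180-51230379: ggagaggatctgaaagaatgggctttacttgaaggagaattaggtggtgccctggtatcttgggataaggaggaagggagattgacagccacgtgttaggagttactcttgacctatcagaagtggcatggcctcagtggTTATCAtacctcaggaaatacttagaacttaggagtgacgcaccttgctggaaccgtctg
Of the lost windows, that near Pcdh9 held 3 matches, that near Sptssa 2 and that near Prorsd1 1.
Pcdh9 lost, chr14:91595332-91595531: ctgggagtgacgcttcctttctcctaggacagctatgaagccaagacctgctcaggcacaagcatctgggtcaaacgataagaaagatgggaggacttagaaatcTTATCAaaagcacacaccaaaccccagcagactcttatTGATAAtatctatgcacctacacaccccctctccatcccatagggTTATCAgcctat
Sptssa lost, chr12:54643530-54643729: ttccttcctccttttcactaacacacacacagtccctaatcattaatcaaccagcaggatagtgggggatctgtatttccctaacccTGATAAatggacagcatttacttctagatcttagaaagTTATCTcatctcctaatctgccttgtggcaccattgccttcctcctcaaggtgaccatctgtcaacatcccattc
Prorsd1 lost, chr11:29504640-29504839: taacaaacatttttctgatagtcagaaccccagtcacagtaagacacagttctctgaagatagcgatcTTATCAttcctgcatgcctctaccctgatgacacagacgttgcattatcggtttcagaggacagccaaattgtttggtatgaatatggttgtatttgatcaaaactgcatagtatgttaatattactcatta

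The 0 h lists held 15256 and 11697 peaks and the 12 h lists 15419 and 13826. The means were 13476.5 ± 2516.6 and 14622.5 ± 1126.4 peaks (SD, n = 2 each), a difference within the spread of the replicates (exact permutation test, two-sided, p = 0.667). With 2 libraries a group the smallest p this test can give is 0.333. The share of peaks within 1 kb of a start was 52.9% and 59.98% in the 0 h lists and 51.4% and 57.6% in the 12 h lists, and the groups overlapped (exact permutation p = 0.667, and 0.667 for both after adjustment over the 2 tests). Read numbers were not given with the lists. Library depth is therefore unknown, and a region without a peak was not called, which need not mean that it was closed. Of the erythroid markers, 3 or 4 of 10 had a promoter peak in each of the 4 lists. No promoter peak lay at any of 8 myeloid or 8 lymphoid markers, whereas 2 of 7 mast cell markers and 1 of 5 megakaryocyte markers had one in every list.

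Of the 21359 regions, 7908 (37.0%) were in all 4 lists, called shared here, 2930 (13.7%) in 3, 3484 (16.3%) in 2 and 7037 (32.9%) in a single list. A single 12 h list set against a single 0 h list gave 4215.75 ± 1166 gained regions and 3150.25 ± 1068 lost ones (SD over 4 such comparisons that share libraries). Requiring both replicates of each group left the 725 and 556. Left to 1 library on one side, the rule called 1106 to 3479 gained and 1101 to 2620 lost regions, so the counts rest on all 4 lists.

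The majority of members in both directions were distal. Promoters, taken as regions within 1 kb of a start, made up 192 gained regions (26.5%), while 292 (40.3%) were intronic, 222 (30.6%) intergenic and 19 (2.62%) exonic. Of the lost regions 87 (15.6%) were at promoters, 223 (40.1%) intronic, 230 (41.4%) intergenic and 16 (2.88%) exonic. In contrast, 73.3% of the regions in all 4 lists were promoters, and 16.8% of those in a single list. The promoter share of gained regions moved to 33.5% with windows of 100 bp and to 35.5% with lists of equal size, and it ranged from 19.3% to 38.3% when a library was left out. For lost regions that range was 15.6% to 37.0%, the highest value being that without 12 h replicate 2, so the order of these shares depended on single libraries. A promoter region could also be a further summit at a promoter that kept its peak. Another peak within 1 kb of a start of the nearest gene stood in both 0 h lists for 39 gained promoter regions (20.3%) and in neither for 139 (72.4%). For lost promoter regions, 21 (24.1%) had one in both 12 h lists and 58 (66.7%) in neither.

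**Figure D1:**
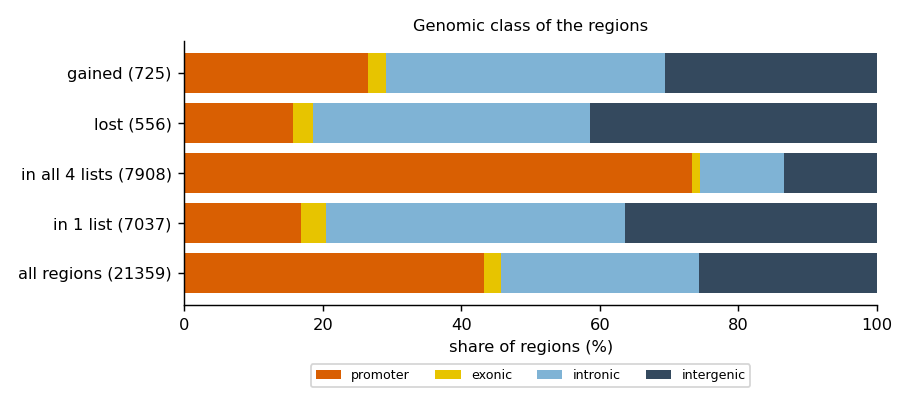
Share of regions (%, x axis) that are promoter, exonic, intronic or intergenic in 5 sets of regions, with the number of regions in brackets. Promoters make up 26.5% of gained and 15.6% of lost regions, against 73.3% of the regions in all 4 lists.

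Lost distal regions lay farther from genes than gained ones. The median distance to the nearest protein-coding start was 27.8 kb for lost and 15.1 kb for gained distal regions, against 19.9 kb for distal regions in all 4 lists. More than 100 kb from any such start lay 83 lost regions (14.9%) and 17 gained regions (2.34%), against 5.85% of all regions. These are counts over regions, which are not replicates, and carry no test.

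The members were weak peaks in their own lists. Rank was read inside each list as the percentile of the peak score, where 100 is the highest score. Gained regions had a median rank of 32.4 in 12 h replicate 1 and 24.0 in replicate 2, and lost regions one of 29.4 in 0 h replicate 1 and 25.6 in replicate 2. Regions in all 4 lists had medians of 63.4 to 71.4, and regions in a single list 16.4 to 21.8. Ranks of at least 75 were held by 4.14% and 0.966% of the gained regions and 4.86% and 2.16% of the lost ones.

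**Figure D2:**
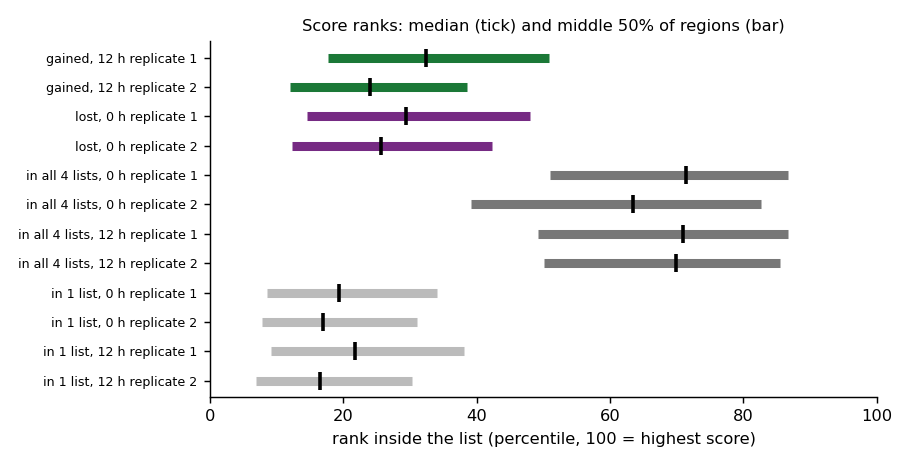
Rank of the peak score inside each list (percentile, x axis) for gained, lost, shared and single-list regions. Each bar spans the middle 50% of regions and the tick is the median. Medians of gained and lost regions sit between 24.0 and 32.4, below all 4 medians of the regions in all lists.

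The rule decides presence by windows, so a summit that moves beyond its window can leave its region. A 0 h summit lay within 1 kb of the summits of 49 gained regions (6.76%), and a 12 h summit within 1 kb of those of 32 lost regions (5.76%). Gained and lost regions lay within 1 kb of each other in 5 places, near Nck2, Dnpep, Irf2bp1 and Suox and at the shared promoter of Senp8 and Myo9a, where 6 bp separated them. Without members that had a summit of the other group within 1 kb of their edges, 664 gained and 514 lost regions were left, and the GATA shares of the distal ones were 46.4% and 70.9%.

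Lost distal regions carried GATA motifs more often than gained ones. A match lay in the central 200 bp of 332 of 469 lost distal regions (70.8%) and 248 of 533 gained ones (46.5%). Distal regions in all 4 lists had 49.6%, those in a single list 34.1%, and all distal regions 41.1%. At least 2 matches were found in 40.3% of lost, 11.3% of gained and 18.9% of shared distal regions. The TAL1-GATA composite (a GATA match preceded by CTG at a gap of 7 or 8 bases) was in 18.3% of lost and 7.69% of gained distal regions, against 14.8% of shared and 8.95% of all. Over the 4 comparisons of single libraries the GATA share was 50.0% ± 4.72 in lost and 35.1% ± 0.967 in gained distal regions (SD), without overlap. Single libraries weighed on these values: the lost share was 46.1% without 0 h replicate 2 and 53.5% without 0 h replicate 1. Without 0 h replicate 2 the gained share was 47.0%, so the order of the shares turned there. The gained share was 33.9% and 32.4% without 12 h replicate 1 or 2.

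Base composition moved with this contrast. The median G and C content of the 200 bp was 44.5% in lost, 50.5% in gained and 51.5% in shared distal regions. Below 40% G and C, 88.5% of 104 lost regions had a GATA match, against 58.3% of 84 shared ones and 42.9% of 14 gained ones. Between 40% and 45% the shares were 78.4% of lost, 72.3% of shared and 65.2% of gained regions. Between 45% and 50% they were 68.8%, 64.5% and 51.3%, and between 50% and 55% 55.6%, 55.9% and 47.4%. Lost regions thus exceeded gained ones in each of these bands, whereas above 50% they did not exceed shared ones until the 60% band, which held 13 lost regions.

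**Figure D3:**
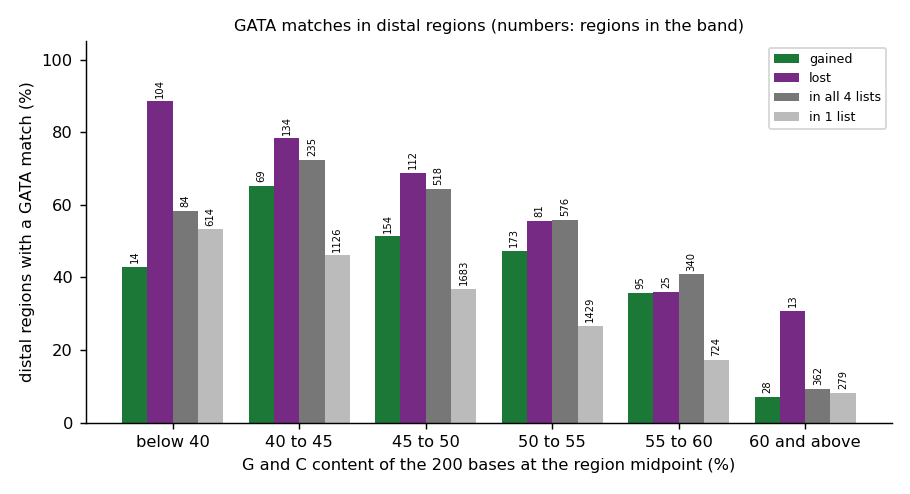
Share of distal regions with a GATA match (%, y axis) by the G and C content of the 200 bases searched (x axis), for gained, lost, shared and single-list regions, with the number of regions above each bar. In the band below 40% the lost regions stand at 88.5% and the shared ones at 58.3%.

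CTCF and KLF motifs differed in the opposite direction. CTCF, the insulator factor, had a consensus match in 12.4% of gained and 3.84% of lost distal regions, against 3.26% of shared, 11.5% of single-list and 9.36% of all distal regions. The gained share was thus close to that of regions called in only 1 list. KLF motifs (CCNCNCCC), the sites of Krüppel-like factors, were in 31.3% of gained and 17.3% of lost distal regions, against 33.8% of shared and 25.1% of all. The KLF shares of gained, lost and shared regions followed the order of their G and C content. They were not compared within bands of it. ETS (GGAAGT), RUNX (TGTGGT) and AP-1 (TGACTCA or TGAGTCA) matches were about as frequent in both sets, with 19.1% and 19.6%, 20.3% and 22.2%, and 7.88% and 7.68% of gained and lost distal regions. E-box (CAGCTG or CAGATG) matches were in 31.5% and 34.8%, STAT (TTCNNNGAA) in 5.07% and 7.46% and NFE2 (GCTGACTCA or GCTGAGTCA) in 3.19% and 3.41%. Over all distal regions these 6 motifs stood at 18.8%, 20.7%, 7.07%, 31.1%, 7.26% and 2.66%, in the order given. A match is a description of letters, read on both strands, and GATA matches overlap the composite.

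The 6 libraries at 2, 6 and 24 h had no part in choosing the regions, and in them the 2 sets drew apart with time. A region counted as listed when a summit window of the library overlapped it. At 2 h, 54.5% and 44.6% of gained regions and 48.0% and 50.5% of lost regions were listed in replicates 1 and 2. At 6 h the shares were 49.0% and 76.4% for gained and 32.9% and 68.5% for lost regions. At 24 h they were 54.2% and 34.3% for gained and 21.8% and 10.8% for lost regions. At 2 h the sets were listed about equally, and at 24 h gained regions were listed more often in both libraries. Shared regions were listed at 87.8% to 99.3% in these libraries, and the list of 24 h replicate 2 was the shortest of the 6, with 10697 peaks, against 19855 in 6 h replicate 2.

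The gained share minus the lost share, which sets both against the same list, was 6.46 and −5.99 percentage points at 2 h. It reached 16.1 and 7.89 points at 6 h, and by 24 h it was 32.4 and 23.6 points. It rose with hours over the 6 libraries (Pearson r = 0.884, exact permutation p = 0.0111, adjusted over 2 relations 0.0222), and this p is the smallest the 6 libraries allow. Spearman's rho was 0.956 (exact permutation p = 0.0222, adjusted 0.0444). Within replicate 1 the coefficient was 0.980 and within replicate 2 it was 0.950, from 3 libraries each. Over the 4 libraries at 2 and 6 h alone r was 0.744, which was not tested. The relation missed the threshold with lists of equal size (r = 0.809, exact permutation p = 0.0556). It did so too when the regions were chosen without 0 h replicate 1 (r = 0.585, exact permutation p = 0.233), without 0 h replicate 2 (0.437, exact permutation p = 0.344) or without 12 h replicate 2 (0.764, exact permutation p = 0.0667). Leaving out 24 h replicate 1 among the 6 gave 0.802 (exact permutation p = 0.1), and leaving out 2 h replicate 1 or 6 h replicate 2 gave 0.884 and 0.879 (exact permutation p = 0.0667 each).

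**Figure D4:**
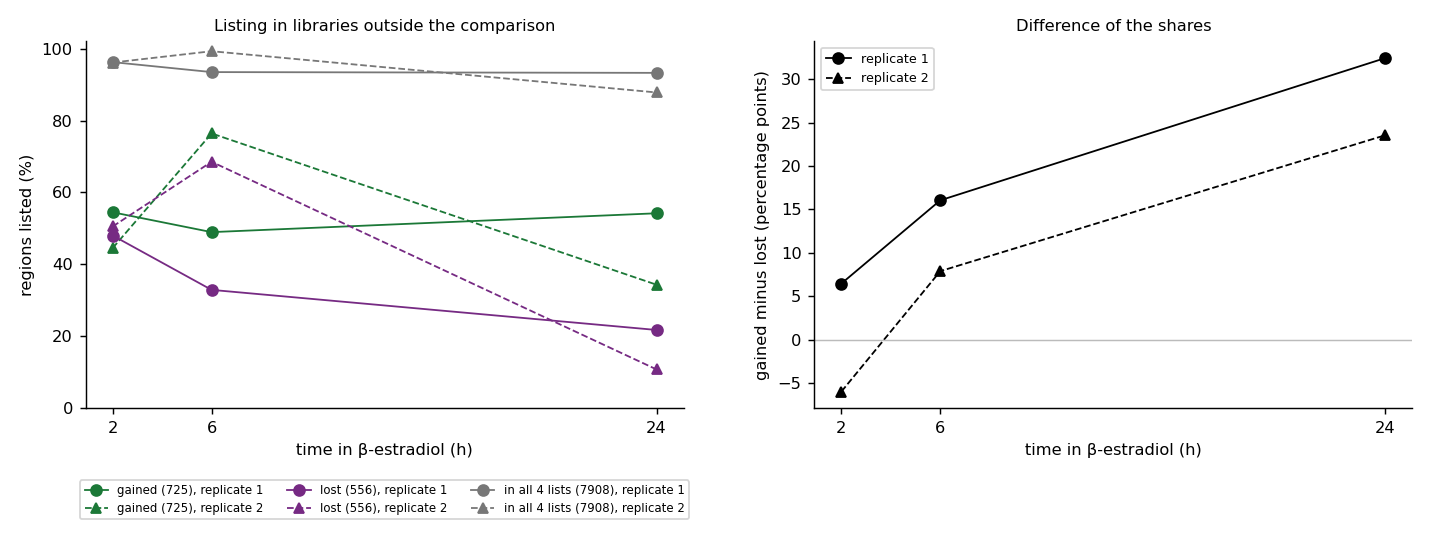
Left, share of gained, lost and shared regions (%, y axis) listed in each library outside the comparison, against hours in β-estradiol, with circles for replicate 1 and triangles for replicate 2. Right, gained minus lost share in percentage points, which reads 6.46 and −5.99 at 2 h and 32.4 and 23.6 at 24 h.

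Most regions lost at 12 h were also absent at 24 h, as were most regions called in a single list. Of the 556 lost regions, 408 (73.4%) were in neither 24 h list and 33 (5.94%) in both, whereas 155 (27.9%) were in both 2 h lists and 147 (26.4%) in both 6 h lists. Single-list regions were about as often in neither 24 h list (71.0%) and less often in both 2 h or both 6 h lists (7.52% and 10.8%). Of the 725 gained regions, 217 (29.9%) were in both 2 h lists, 299 (41.2%) in both 6 h lists, 172 (23.7%) in both 24 h lists and 255 (35.2%) in neither 24 h list. In all 6 other libraries stood 52 gained and 6 lost regions, and in none of them 33 and 61.

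The GATA-bearing lost regions were those least often listed again. Among lost distal regions with a GATA match, 9.94% and 3.61% were listed in the 24 h replicates, against 32.8% and 13.1% of those without one. Among shared distal regions the same shares were 79.9% and 67.5% with a match and 92.0% and 75.4% without. Gained distal regions went the other way, with 58.5% and 36.7% listed at 24 h with a match and 48.8% and 25.3% without. At 2 h, lost distal regions with and without a match were listed at 43.7% and 43.8% in replicate 1 and at 55.4% and 40.9% in replicate 2. Lost promoters were listed at 24 h more often (49.4% and 34.5%) than lost distal regions (16.6% and 6.40%). The same order held for shared promoters (95.9% and 93.8%) and shared distal regions (86.0% and 71.5%). It also held for gained promoters (56.8% and 44.8%) and gained distal regions (53.3% and 30.6%).

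Among the 10 gained regions that ranked highest in the weaker of their 12 h lists, 2 held a GATA match and 8 were in both 24 h lists. One was intronic in Rrp12, a ribosome assembly gene (chr19:41888144-41888668), with ranks of 85.2 and 73.6 at 12 h. It was listed in all 6 other libraries, 2 h included, at ranks of 47.9 to 87.2. An intronic region of Noct, which encodes the circadian phosphatase nocturnin (chr3:51230023-51230529), likewise stood in all 6, with ranks of 72.7 and 80.2 at 12 h.

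Further gained regions of this group lay in Arid1a, a subunit gene of the SWI/SNF remodeller, in Pde4a, a cAMP phosphodiesterase gene, and 10.0 kb upstream of Trim59. A region inside Abcb10, the gene of a mitochondrial transporter used in heme synthesis (chr8:123978781-123979361), had ranks of 60.7 and 79.3 at 12 h and was in all 6 other lists, at 90.5 and 14.5 at 24 h. Csf2rb, the common beta chain of the IL-3, IL-5 and GM-CSF receptors, held an intronic region (chr15:78339955-78340483) with ranks of 63.5 and 60.6. In the other libraries it was listed in 2 h replicate 1, 6 h replicate 2 and 24 h replicate 2, at ranks of 3.70 to 16.1, below both of its 12 h ranks. The gained promoters that ranked highest were those of Rraga, a GTPase of the amino acid branch of mTORC1 signalling, Senp8, a protease for NEDD8, Itgb7, the integrin beta 7 chain, Rogdi and Pus7, a pseudouridine synthase. The Senp8 and Rogdi promoters had another peak in both 0 h lists, and the other 3 had none there. Rraga had ranks of 70.1 and 67.7 at 12 h and was in neither 24 h list. Itgb7 had 57.0 and 62.4 and stood at 86.0 and 60.3 at 24 h.

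Among the 10 lost regions that ranked highest in the weaker of their 0 h lists, 8 were distal and all 8 of these held a GATA match. Of the 10, 7 were in neither 24 h list. The first lay at chr14:91595181-91595721, between genes and 2293 kb from the nearest start, that of Pcdh9, a protocadherin gene. Its rank was 85.1 and 84.6 in the 0 h replicates and 60.5 and 65.0 at 2 h. Only replicate 2 listed it at 6 h, at 48.9, and it was in neither list at 12 or 24 h. A region 12.7 kb downstream of the start of Sptssa, a small subunit gene of serine palmitoyltransferase (chr12:54643351-54643879), had ranks of 88.6 and 81.5 at 0 h. It stood at 35.3 and 76.1 at 2 h and at 9.56 and 52.0 at 6 h, and was absent later. Both regions were lower in rank at each step in both replicates until they left the lists.

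A lost region in an intron of Erg, an ETS factor of stem cells and megakaryocytes (chr16:95487819-95488370), had ranks of 67.0 and 81.9 at 0 h and of 54.2 and 28.6 at 2 h, and the 6 h lists held it once, at 13.8. Xbp1, a transcription factor gene of the unfolded protein response, had a lost region 10.6 kb upstream (chr11:5509512-5510029) with ranks of 87.0 and 67.7 at 0 h. It was still listed at 76.0 and 52.0 at 6 h and in neither list at 12 or 24 h. The other distal lost regions of this group lay near Prorsd1, Vcl (the adhesion protein vinculin), Nmnat2 (an enzyme of NAD synthesis) and Rsu1. The lost promoters went otherwise. That of Crlf2, the receptor of the cytokine TSLP (chr5:109558265-109558772), had ranks of 82.4 and 80.5 at 0 h, was absent at 6 and 12 h, and stood at 90.7 and 63.3 at 24 h. That of Myo9a, an unconventional myosin gene, is the region beside the gained Senp8 one described above. Tm9sf1, Mex3a and Psmb3, a proteasome subunit gene, followed, with lower ranks of 45.6 to 54.5. The promoters of Myo9a and Psmb3 kept another peak in both 12 h lists.

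Regions were assigned to the nearest protein-coding start within 100 kb, which does not show that they act on that gene. Of 21644 protein-coding genes, 680 (3.14%) were nearest to a gained region, 457 (2.11%) to a lost one and 32 to both. The lists differ in how many regions their genes have, so the share of their regions is given as well, against the 3.39% gained and 2.6% lost over all regions. The lists were composed with earlier results of these data known, and their counts carry no test.

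**Figure D5:**
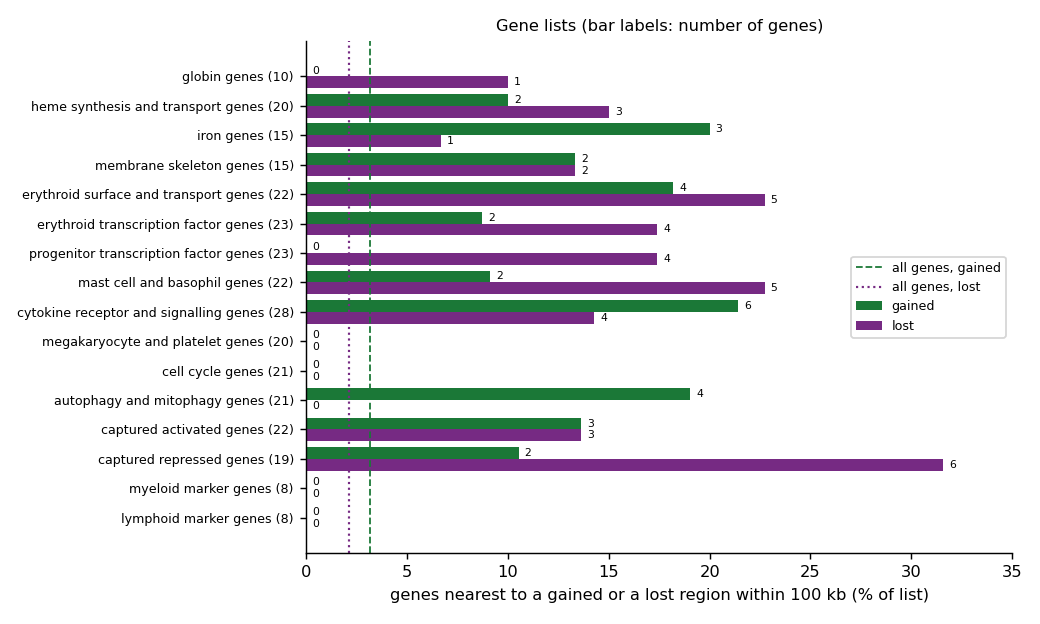
Share of each gene list (%, x axis) that is nearest to a gained or a lost region within 100 kb, with the number of genes at each bar and the size of the list in brackets. Dashed and dotted lines mark the shares over all genes, 3.14% gained and 2.11% lost. Mast cell and basophil genes stand at 5 lost of 22, progenitor transcription factor genes at 4 of 23, and autophagy genes at 4 gained of 21 and none lost. The lists of mast cell genes and of captured repressed genes overlap.

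Mast cell and basophil genes had 6 lost and 4 gained among their 43 regions (14.0% and 9.30%), at 5 and 2 of 22 genes. Every gene named in this paragraph except Prss34 is also a captured repressed gene of the study, which chose those for their falling expression. The direction of this list is therefore not independent evidence either. All 6 lost regions were distal and in neither 24 h list, and 4 held a GATA match. They lay near Gzmb (granzyme B), Ms4a2 (the beta chain of the high-affinity IgE receptor), Prss34 (a mast cell protease), Tespa1 and, with 2 regions, Kit, the receptor of SCF. The Prss34 region (chr17:25293316-25293960) had ranks of 86.1 and 14.8 at 0 h, so its replicates differed widely. Ranks at 0 h were 0.665 and 36.6 at Tespa1, 13.8 and 9.66 at Gzmb and 33.6 and 13.4 at Ms4a2, so these were weak peaks before their loss. The lost Kit region 70.8 kb upstream (chr5:75503537-75504149) had ranks of 69.4 and 25.6 at 0 h and that 4.69 kb inside the gene (chr5:75579649-75580185) 29.0 and 33.8. Gained regions lay near Kit as well, at 3 places, with ranks of 73.6 and 0.325 at the promoter, 17.2 and 66.7 at 49.1 kb and 8.88 and 12.0 at 58.3 kb. The Kit promoter had another peak in both 0 h lists, so the gained region there is a further summit. It rests on a single strong one, since its rank in 12 h replicate 2 was near the bottom of the list. The remaining gained region lay 48.9 kb upstream of Il1rl1, the receptor of IL-33, with ranks of 31.5 and 57.0, and was already in all 2 h and 6 h lists.

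Progenitor transcription factor genes had 4 lost and no gained regions among 72 (5.56% lost), near Erg, Etv6, Etv5 and the promoter of Myb. All but Etv5 were in neither 24 h list. The Myb promoter region (chr10:21160726-21161305) had ranks of 40.3 and 29.2 at 0 h, was in neither 2 h list, and had 61.2 and 27.3 at 6 h. Erythroid transcription factor genes had 4 lost and 2 gained regions among 89 (4.49% and 2.25%). Lost regions lay in an intron of Zfpm1, which encodes the GATA1 cofactor FOG1, 3.25 kb upstream of the start of Gata1 and at the promoters of Lmo2 and Cbfa2t3, both members of GATA1-TAL1 complexes. The Cbfa2t3 promoter kept another peak in both 12 h lists, whereas that of Lmo2 had none. The Lmo2 region had ranks of 17.7 and 16.7 at 0 h and was listed again in both 24 h libraries, at 33.9 and 41.2. The Zfpm1 region (chr8:122284540-122285190) had 3 GATA matches and 1 composite, with ranks of 43.5 and 47.3 at 0 h, and was listed again only in 2 h replicate 2. The Gata1 region had ranks of 2.80 and 12.7 at 0 h, near the bottom of both lists. A gained region lay near Gfi1b, a repressor needed for red cell maturation, with ranks of 35.3 and 22.4 at 12 h.

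Genes of the red cell's own products had regions in both directions. Heme synthesis and transport genes had 3 lost and 2 gained regions among 44 (6.82% and 4.55%). Fech, the last enzyme of the pathway, had a gained intronic region with ranks of 3.49 and 35.6 at 12 h, Uros and the Hebp1 promoter had lost ones, and Abcb10 had both. Iron genes had 3 gained and 1 lost among 40 (7.50% and 2.50%). The gained ones lay near Fth1 (ferritin heavy chain), Aco1 (the iron regulatory protein IRP1) and the promoter of Ncoa4, the receptor for ferritin autophagy. All 3 had ranks under 8 in 12 h replicate 1, with 0.590 at Fth1, 7.43 at Aco1 and 6.84 at Ncoa4, so they barely entered that list. The Ncoa4 promoter had a peak in all 10 libraries, so its gained region is a further summit at a promoter already listed at 0 h. The lost iron region was intronic in Ncoa4 as well, with ranks of 9.29 and 31.4 at 0 h. Among membrane skeleton genes Add3 and Tmod1 had gained and Add2 and Ank1 lost regions, 2 in each direction among 52. The lost Add2 region (chr6:86074776-86075333) had 2 GATA matches and ranks of 77.0 and 56.8 at 0 h. Erythroid surface and transport genes had 4 gained and 5 lost among 54 (7.41% and 9.26%), with Car2 (carbonic anhydrase 2) and Cd44 in both. Their gained regions were promoters, with ranks of 47.3 and 15.9 at Car2 and 40.9 and 34.7 at Cd44. Of the globin genes, Hbb-bt alone had a member, a lost region with ranks of 32.3 and 21.4 at 0 h, and Ahsp was not matched in the annotation.

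Cytokine receptor and signalling genes had 6 gained and 4 lost regions among 68 (8.82% and 5.88%). The gained ones lay near Csf2rb, Csf2rb2, Il4ra, Cd34, Pim1 and Bcl2l1, the survival gene of erythroblasts, whose intronic region (chr2:152817412-152817963) held 2 GATA matches and 1 composite. Its ranks of 48.8 and 38.2 at 12 h were below the 81.1 and 58.2 of the 6 h lists, and it stood at 73.1 and 38.3 at 24 h. The lost ones lay near Spry1, Spred1 and Socs1, which encode inhibitors of receptor signalling, and Pim1. The Socs1 promoter had a peak in all 10 libraries, so another one remained in both 12 h lists. Autophagy and mitophagy genes had 4 gained and no lost regions among 44 (9.09% gained), at the Tfeb promoter, in Ulk1 and Ube2o and upstream of Wipi1. TFEB is the master regulator of lysosome genes and ULK1 the kinase that starts autophagy. Ranks at 12 h were 57.2 and 17.7 at Ulk1, 57.8 and 9.29 at Ube2o and 2.09 and 63.8 at Wipi1, so each was weak in a single list. The Tfeb region had ranks of 38.9 and 44.3 at 12 h, where 0 h replicate 1 also had a peak at another part of its promoters, and was in neither 24 h list, and none of the 4 was in both. Megakaryocyte and platelet genes, cell cycle genes and the myeloid and lymphoid markers had no member among their 16, 54, 1 and 0 regions.

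The study captured a set of activated and a set of repressed promoters in this system, and both lists were drawn from it, so their direction is not independent evidence. The 22 activated genes had 3 gained and 3 lost regions among 56 (5.36% each), the gained near Abcb10, Plekho2 (a further summit at a promoter with a peak in both 0 h lists) and Spns2 and the lost near Abcb10, Hebp1 and Lpin2. The 19 repressed genes had 7 lost and 4 gained among 67 (10.4% and 5.97%), most of which are the mast cell regions above, with Fgf3 and Etv5 besides. The Fgf3 region (chr7:144788541-144789330) held 3 GATA matches and had ranks of 66.3 and 26.5 at 0 h.

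In the 7908 shared regions the rank inside the list could be compared. Both 12 h ranks exceeded both 0 h ranks in 1418 regions (17.9%), called raised, and the reverse held in 882 (11.2%), called lowered. The 4 lists can be split 2 against 2 in 6 ways, and a single way meets each rule. Many regions therefore meet either rule without any change between the groups. The raised share was near that which a random order of ranks would give, and the lowered share was below it. The counts are thus not counts of regions that shifted, and they carry no test. These counts rest on all 4 lists: with a library left out, the same rule called 2743 to 3584 raised and 1834 to 2908 lowered regions. Their order turned without 0 h replicate 2, which gave 2743 raised and 2908 lowered. Raised regions were promoters in 75.1% and lowered ones in 65.5%. Of the distal ones, 67.1% of 304 lowered and 48.2% of 353 raised regions had a GATA match, against 49.6% of all shared distal regions. Lowered distal regions thus stood near the lost ones in this feature, as they did in distance to a start, with a median of 24.9 kb against 18.3 kb for raised regions.

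In the other 6 libraries the ranks of raised and lowered regions had no common order. The median rank of raised minus that of lowered regions was 0.202 and −4.16 percentile points at 2 h. The later values were 0.767 and −0.476 points at 6 h, and 3.17 and −1.39 points at 24 h. Its relation with hours missed the threshold (Pearson r = 0.445, exact permutation p = 0.433, adjusted 0.433; Spearman's rho 0.359, exact permutation p = 0.533). Lowered regions were listed less often than raised ones at 24 h, at 85.6% and 81.6% against 94.5% and 89.5%. At 2 h both sets were listed at 95.8% to 96.8%.

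The lowered region with the widest gap lay 207 kb upstream of the start of Pfkp, a phosphofructokinase gene (chr13:6855424-6856109), with 3 GATA matches. Its rank was 81.1 and 87.5 at 0 h and 10.3 and 19.5 at 12 h, and it was in neither 24 h list. Next came one 2.40 kb upstream of Etnk1, an ethanolamine kinase gene (chr6:143164236-143164824), whose ranks of 93.5 and 70.2 at 0 h compared with 9.28 and 12.1 at 12 h, and which was in neither 24 h list. All 5 lowered regions so chosen held a GATA match and none was in both 24 h lists. The others lay nearest to Esf1, Fut8 and Sp3. The raised region with the widest gap lay 12.5 kb upstream of Hsph1, a heat shock chaperone gene (chr5:149648887-149649488), with ranks of 24.9 and 6.16 at 0 h and 87.0 and 90.9 at 12 h. It had already risen to 76.6 and 81.8 at 2 h, but stood at 49.8 and 80.9 at 6 h and at 48.9 and 75.4 at 24 h. The others lay near Fer1l6, Tent5c, Igsf3 and Ankrd9, and all 5 were in every library.

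By list, and against the 17.9% raised and 11.2% lowered over all shared regions, those near repressed captured genes were lowered in 6 (46.2%) and raised in 0 of 13, near Kit, Il1rl1, Rgs1, Tespa1, Klf10 and Sept9. Of 5 shared regions near mast cell genes 4 were lowered, all near genes just named. Autophagy genes had 4 raised and 0 lowered of 14, near Gabarapl2, Map1lc3a, Ube2o and Ulk2 (28.6% raised). Membrane skeleton genes had 4 raised and 0 lowered of 21, near Add1, Gypc and Sptb, a raised share of 19.05% that is close to that over all shared regions. Erythroid transcription factor genes were divided, with 7 raised (22.6%) and 6 lowered (19.4%) of 31, among them lowered regions near Klf1, Sox6 and Ikzf1 and raised ones near Foxo3 and Lmo2. Heme genes had 5 raised regions, among them those near Alas2, the first enzyme of erythroid heme synthesis, and Cpox, and 3 lowered of 20 (25% and 15%).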

How the data were processed

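ATAC-seq peak lists of 10 libraries were used, of which 4 (0 h and 12 h) defined the regions. The authors trimmed adaptors, aligned reads to mm10, kept uniquely placed reads and called peaks in each library alone (MACS, no fragment model). Bowtie2 is the aligner in the methods and Bowtie 1.0.0 in the submitters' processing notes, which also list MACS2 and Picard, so the aligner version is uncertain. No shift for the Tn5 cut is stated, and the positions deposited are summits of 1 bp. The score the authors deposited is −log10 of the q-value, at least 1.30, that each peak had in its own library. It rises with depth, which is unknown, so it was used only as a rank inside a list. No interval that needs a depth is given.

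Groups and replicate numbers came from the sample titles. Peaks on chromosome Y and the mitochondrial genome were left out. Starts were 41135 transcript starts of 21644 protein-coding genes in the basic annotation of GENCODE M21 on GRCm38 patch 6. A promoter lay within 1 kb, and other regions were exonic, intronic or intergenic. Motifs were searched in the 200 bp around each region midpoint.

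Tests were exact permutation tests over libraries, two-sided. Replicates 1 and 2 of each time share only a number in the labels. Alternatives were windows of 100 and 500 bp, lists cut to equal size, a score of at least 2, all 10 lists merged, a promoter distance of 500 bp, summit-centred motifs, a replicate block and leaving out each library. The steps were tested on simulated lists. Named regions were the 10 gained and the 10 lost with the highest lower rank of their 2 lists, the 5 promoters of each by the same rule, and the 5 raised and 5 lowered with the widest gap. Named genes were their nearest ones and every member of 16 gene lists nearest to a gained or lost region within 100 kb, of which 1 gained region is not reported here. The regions, lists and rules were chosen with earlier results of these data known. Python 3.11.15, numpy 2.4.6, pandas 2.3.3 and scipy 1.17.1 were used.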

Additional observations from a re-analysis of the deposited data

Results flagged for a closer look

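Peaks on chromosome Y, which no comparison used, numbered 3 in 12 h replicate 1 and 4 in 12 h replicate 2, above the 2 and 1 of the 0 h lists. The other libraries had 1 to 4, so the 12 h numbers lie within the range of the series.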

How the results depend on the processing

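Of 68 values recomputed under alternatives other than leaving out a library, 61 were read as kept. Relations with hours and differences between lists had to keep their direction and their side of the threshold. Promoter and GATA shares of the members had to stay within the spread. Counts of regions had only to stay within a fixed factor of the main count. Thus 502 gained regions with lists of equal size, against 725, were read as kept. The exceptions were the promoter shares with windows of 100 bp (33.5% of gained, 21.9% of lost regions), the gained one with lists of equal size (35.5%), the GATA share of distal gained regions with windows of 500 bp (45.6%) and with summit-centred motifs (44.8%), the relation of listing with hours with lists of equal size (r = 0.809, exact permutation p = 0.0556), and the promoter share of peaks, whose difference of −1.93 percentage points turned to 0.645 with lists of equal size. Leaving out a library gave 1106 to 3479 gained and 1101 to 2620 lost regions, 2743 to 3584 raised and 1834 to 2908 lowered ones, promoter shares of 19.3% to 38.3% and 15.6% to 37.0%, and GATA shares of 32.4% to 47.0% and 46.1% to 66.6%. It gave r from 0.437 to 0.969 for listing and 0.0136 to 0.760 for ranks against hours. The difference of peak numbers then ran from −633.5 to 2925.5 and that of their promoter shares from −5.47 to 1.61. The order of the GATA shares turned without 0 h replicate 2, which gave 47.0% of gained and 46.1% of lost distal regions. With 1 library left on one side the rule is looser by construction.

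With the replicate block, permuting hours within replicate numbers, the relation of listing with hours (r = 0.884) had p = 0.0278 over 36 orders and that of ranks (r = 0.445) p = 0.306 (exact permutation). The paired differences of 1146 peaks and of −1.93 percentage points in promoter share had an exact permutation p = 0.5 each, the smallest possible there. The block changed no call. Chosen after seeing the data, members with no summit of the other group within 1 kb of their edges numbered 664 gained and 514 lost, with r = 0.891 (exact permutation p = 0.0111) for listing. Depth limits every absence: a region missing from a list may be open and uncalled, and most members ranked in the lower part of their lists.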
